A study of Mus musculus with 24 samples.

Results

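Adipokines are proteins that fat cells release into the blood. The 5 described here are Lep (leptin), Adipoq (adiponectin), Retn (resistin), Cfd (adipsin, also called complement factor D) and Rbp4 (retinol binding protein). They were chosen by name, found by their gene symbol in the deposited normalized table and tested on the same Ensembl entries of the raw count table. They are 5 of 17541 genes in the table, and all 5 were among the 15939 genes that passed the filter on low counts. The study measured RNA in inguinal white adipose tissue (iWAT, the subcutaneous fat of the groin) with QuantSeq, a kit that reads the 3′ end of each transcript. All mice were wild type and of the C57BL/6J strain, and per the series title all were fed a high fat diet. The groups were Aged BAM15 (92 weeks of age, treated with BAM15, n = 5), Aged CTRL (92 weeks, control, n = 6), Young BAM15 (16 weeks, BAM15, n = 6) and Young CTRL (16 weeks, control, n = 7). BAM15 is a mitochondrial uncoupler, a compound that lets protons leak back across the inner membrane so that fuel is burned without making ATP. The dose, the length of treatment and the sex of the mice are not given in the labels, and each library carries an animal ID of its own.

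Leptin is released in proportion to fat stores and acts through its receptor in the brain to lower food intake. Adiponectin raises insulin sensitivity in liver and muscle through the receptors Adipor1 and Adipor2, and its blood level is low in obesity. Resistin is made by adipocytes in mice (by macrophages in humans) and opposes insulin action in mice. Adipsin is the protease that cuts complement factor B and so drives the alternative complement pathway. Rbp4 carries retinol in the blood and is made in liver and in adipocytes. Lep, Adipoq and Retn are targets of the adipocyte transcription factors C/EBPα or PPARγ.

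The genes lie on 5 chromosomes (build GRCm38, GENCODE annotation). Lep is at chr6:29060220-29073877, Adipoq at chr16:23146536-23158028, Retn at chr8:3655770-3660110 and Cfd at chr10:79890853-79892655, all on the plus strand. Rbp4 is at chr19:38116629-38125281 on the minus strand. The promoters of Cfd and of Lep, Adipoq and Rbp4 are shown because the level of Cfd had no called correlation with those of Lep, Adipoq and Rbp4 over 20 of the 24 libraries, as given below. Each is the 250 bases before the start site, from RefSeq on GRCm38.p6, read 5′ to 3′ on the strand of the gene. Capitals mark matches on either strand to 6 short motifs. They are the TATA box (letters TATAAA), the C/EBP motif (letters TTGCNNAA) and the box named by its letters CCAAT. The others are the E-box (letters CACGTG), the nuclear receptor motif (letters AGGTCA) and the GC box (letters GGGCGG). The Cfd stretch is chr10:79890603-79890852, that of Lep chr6:29059971-29060220, that of Adipoq chr16:23146286-23146535 and that of Rbp4, for the second of its 2 RefSeq start sites, chr19:38124812-38125061 on the minus strand.
Cfd: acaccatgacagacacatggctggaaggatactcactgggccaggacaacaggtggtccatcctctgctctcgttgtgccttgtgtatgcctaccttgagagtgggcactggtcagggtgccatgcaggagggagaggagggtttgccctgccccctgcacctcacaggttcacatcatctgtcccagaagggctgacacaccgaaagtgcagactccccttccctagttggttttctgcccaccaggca
Lep: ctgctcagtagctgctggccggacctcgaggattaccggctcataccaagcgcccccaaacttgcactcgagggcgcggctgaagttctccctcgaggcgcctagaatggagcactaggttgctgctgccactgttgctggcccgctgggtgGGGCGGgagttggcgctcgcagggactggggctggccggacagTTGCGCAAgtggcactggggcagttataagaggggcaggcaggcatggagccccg
Adipoq: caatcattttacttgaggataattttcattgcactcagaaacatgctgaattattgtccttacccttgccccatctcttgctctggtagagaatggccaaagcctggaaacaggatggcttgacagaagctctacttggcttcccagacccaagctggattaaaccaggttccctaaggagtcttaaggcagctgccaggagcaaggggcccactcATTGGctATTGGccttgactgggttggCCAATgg
Rbp4: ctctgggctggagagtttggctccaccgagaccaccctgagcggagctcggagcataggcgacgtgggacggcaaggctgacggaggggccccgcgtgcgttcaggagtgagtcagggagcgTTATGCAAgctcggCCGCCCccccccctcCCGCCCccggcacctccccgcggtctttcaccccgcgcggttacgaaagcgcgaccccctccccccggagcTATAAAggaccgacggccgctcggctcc
The Cfd window held none of these letters, nor did that of Retn. Lep had the C/EBP motif from -55 to -48, counted from the start site, and a GC box from -98 to -93. Adipoq had CCAAT at -7 and, on the opposite strand, at -34 and -27. Rbp4 had a TATA box at -28 and, on the opposite strand, the C/EBP motif at -128 and GC boxes at -114 and -99. Its other start site had only a CCAAT match at -162, on the opposite strand. Of 32851 promoters of the same length, 12.4% held the TATA box, 9.56% the C/EBP motif and 33.8% the CCAAT box. Of the same promoters, 6.02% held the E-box, 14% the nuclear receptor motif and 32.7% the GC box. The share with none of the 6 motifs was not computed, so whether the Cfd and Retn windows are unusual is not known. A match describes the letters only, and no match says nothing about whether a factor binds.

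Library totals ran from 8.62 to 21.9 M counts. All 15 adipocyte markers (such as Plin1, Cidec and Lipe) were detected, and none was at 0 in every library. The libraries Aged BAM15 2, Aged BAM15 5, Aged CTRL 2 and Young CTRL 4 stood apart from the other 20. These 4 also had the highest totals, at 18.4 to 21.9 M counts, with the next library, Aged CTRL 6, at 17.9 M counts. The mitochondrial ribosomal RNA mt-Rnr2 made up 0.121 to 0.257% of their counts, against 0.722 to 2.26% in the others, and mitochondrial transcripts together made up 11.99 to 21.4%, against 4.82 to 9.27%. In the 3 aged ones Lep was at 112 to 416 CPM (counts per M counts of the library, scaled), against 1323 to 4881 CPM in the other 8 aged libraries. Retn was at 3919 to 8805 CPM in those 3, against 512 to 909 CPM in the other 8. The changes of the 5 genes are therefore given with and without these 4 libraries. Among the Young CTRL libraries, number 1 held 840 CPM and number 7 held 89.99 CPM of the skin keratin Krt14, while Krt14 was at 3.28 CPM or less in all others. The muscle actin Acta1 exceeded 5000 CPM in Young BAM15 3, Aged CTRL 1 and Young CTRL 7. The summed B cell markers also varied widely, from 91.2 to 1050 CPM in Aged BAM15, 194 to 822 CPM in Aged CTRL, 334 to 2005 CPM in Young BAM15 and 601 to 1148 CPM in Young CTRL. No marker of that list was at 0 in every library. The mean B cell marker level was 2.71 ± 2.74 log2 CPM in Aged BAM15 (SD, n = 5), against 1.56 ± 1.67 in Aged CTRL (n = 6), and 5.12 ± 2.68 in Young BAM15 (n = 6), against 1.67 ± 2.73 in Young CTRL (n = 7). With BAM15 averaged over both ages, 7 of the 8 B cell markers had a positive log2 change (median 1.98), as had 5 of 5 T cell markers (median 1.73), beside a median of 0.03 for all genes. None of these markers was called by edgeR, which called 0.922% of all genes in this comparison.

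**Figure D1:**
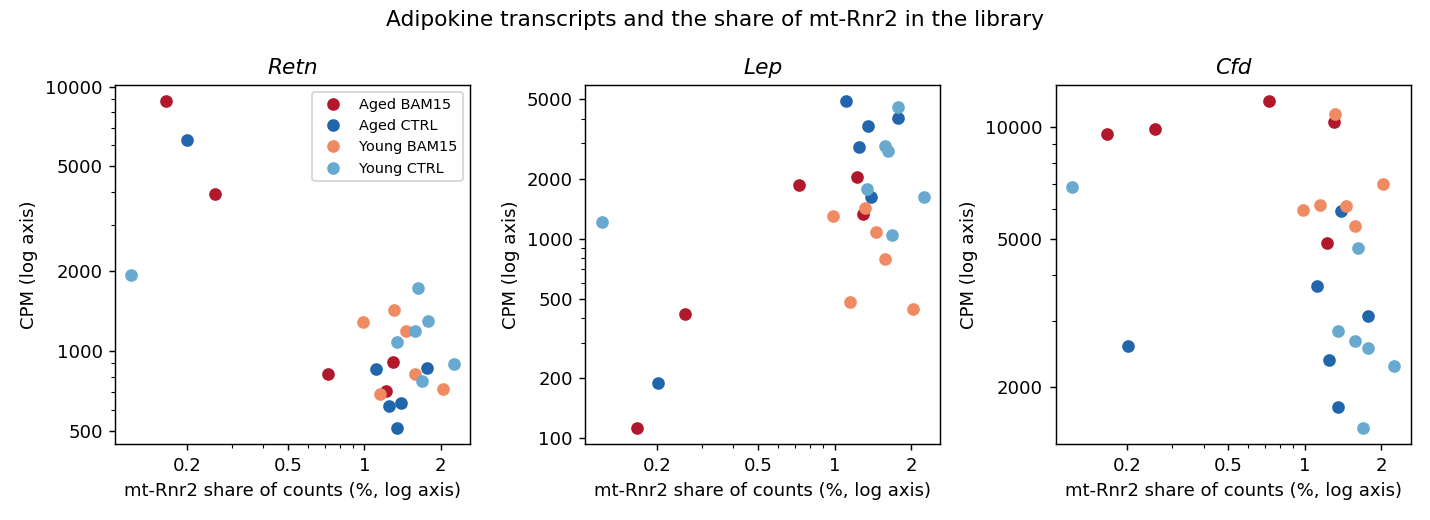
Level of Retn, Lep and Cfd in CPM (log axis) against the share of counts from mt-Rnr2 in percent (log axis), 1 point per library, coloured by group. The 4 libraries of low share are the points at the left of each panel. The 3 aged libraries below 0.3% have Lep at 112 to 416 CPM and Retn at 3919 to 8805 CPM, outside the range of the other 8 aged libraries.

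Cfd was higher in BAM15 mice than in control mice of both ages. Its level was 4868, 9565, 11698, 10295 and 9883 CPM in the 5 Aged BAM15 mice, against a lowest of 1763, a median of 2837 and a highest of 5944 CPM in Aged CTRL. Only Aged BAM15 1, at 4868 CPM, lay within the Aged CTRL range, below the highest Aged CTRL mouse. In Young BAM15 the lowest was 5400, the median 6142 and the highest 10806 CPM, against 1550, 2656 and 6868 CPM in Young CTRL. The overlap rests on Young CTRL 4, at 6868 CPM. Without it the highest Young CTRL mouse was at 4716 CPM, under all 6 Young BAM15 mice. The share of all genes that part the young groups without this library was not computed. The means were 9262 ± 2588 CPM in Aged BAM15 (SD, n = 5), against 3244 ± 1481 CPM in Aged CTRL (SD, n = 6). In the young they were 6908 ± 1977 CPM in Young BAM15 (SD, n = 6), against 3345 ± 1829 CPM in Young CTRL (SD, n = 7). As in any bulk sample, more cells of a type and more RNA per cell cannot be told apart.

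**Figure D2:**
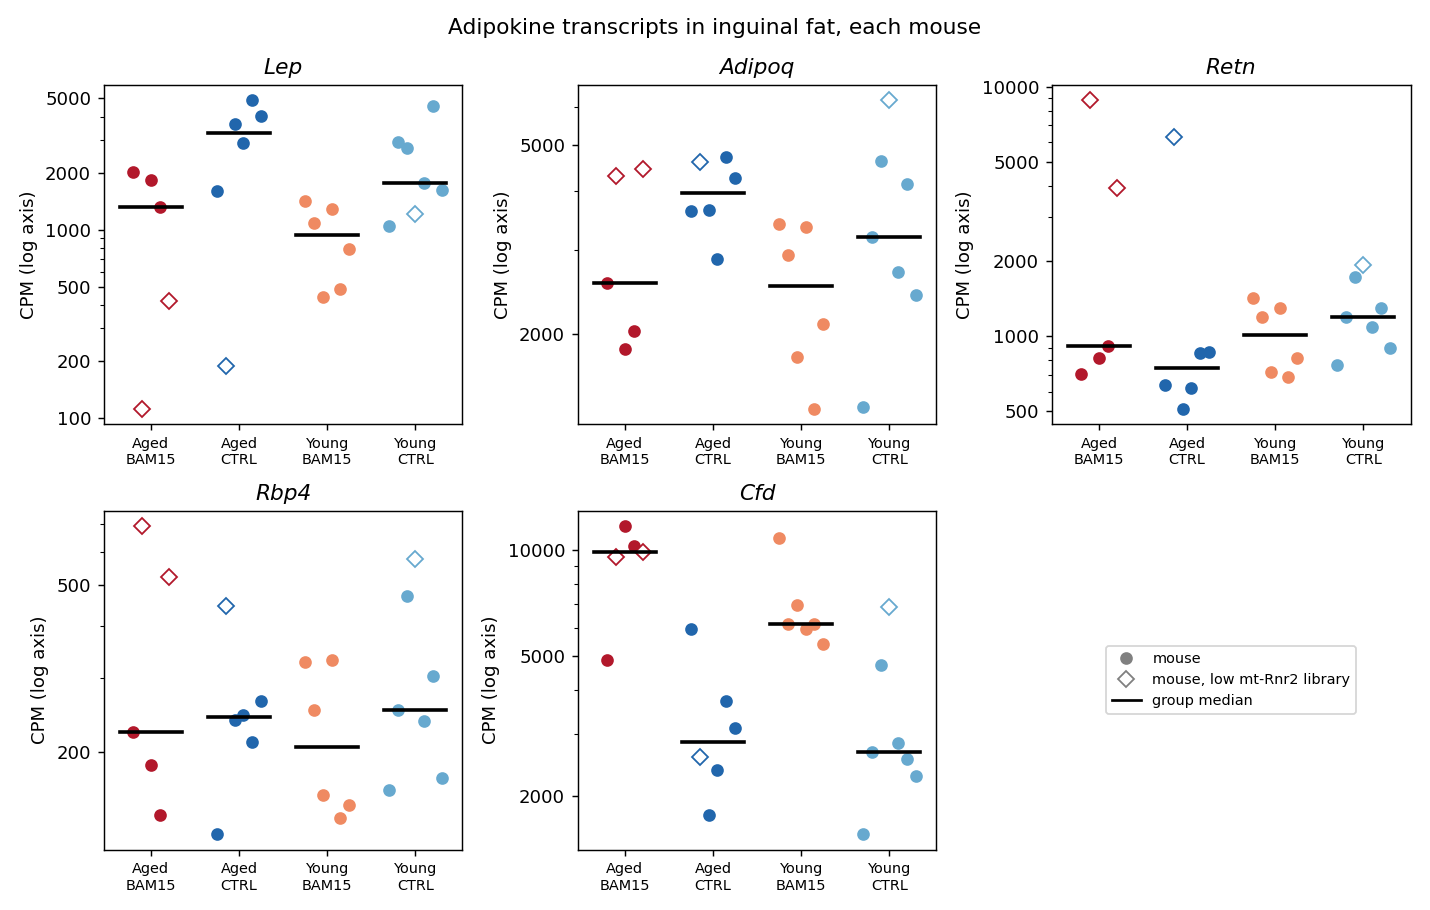
Level of Lep, Adipoq, Retn, Cfd and Rbp4 in every mouse, in CPM on a log axis, with the groups Aged BAM15, Aged CTRL, Young BAM15 and Young CTRL from left to right; black lines are group medians and open diamonds the 4 libraries of low mt-Rnr2 share. The Cfd medians are 9883 and 6142 CPM in the BAM15 groups and 2837 and 2656 CPM in the control groups.

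Averaged over both ages, Cfd rose with BAM15 by a log2 change of 1.28 ± 0.24 (SE), a 2.43-fold difference, with an adjusted p of 0.0286 by edgeR's quasi-likelihood test over all 15939 genes. It was the only adipokine of the 5 that passed in this comparison, in which 0.922% of all genes passed (147 of 15939), and 0.245% passed as higher. The log2 change was 1.36 (adjusted p = 0.0147) without the 4 libraries of low mt-Rnr2, when 4.62% of genes passed. Cfd kept its direction in 39 of 39 alternatives (log2 1.17 to 1.48) and was called in 32 of them. The call was lost on leaving out Young BAM15 5 (adjusted p = 0.0583), Aged CTRL 3 (0.0566), Aged BAM15 3 (0.0758) or Aged BAM15 4 (0.0811). It was also lost with the mean level of the B cell markers (log2 1.41, adjusted p = 0.101) as a covariate. The same held for the macrophage markers (log2 1.34, adjusted p = 0.0694) and for the replicate number as a block. With either covariate, with the block or without Aged BAM15 4, edgeR called 0 genes in this comparison. The part of the B and T cell markers in the Cfd change was not tested beyond the B cell covariate. The Cfd call held without the 2 libraries with Krt14 (log2 1.17, adjusted p = 0.0324) and without the 3 with high Acta1 (log2 1.37, adjusted p = 0.0261).

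Within each age the Cfd difference did not pass the test across all genes. It was 1.51 ± 0.36 on the log2 scale (SE) in Aged BAM15 against Aged CTRL, with an adjusted p of 0.22 by edgeR. In Young BAM15 against Young CTRL it was 1.05 ± 0.32, with an adjusted p of 0.219. In neither comparison did edgeR call any gene (0%), while 1450 genes in the aged (9.1%) and 2081 in the young (13.1%) had an unadjusted p under 0.05. Cfd and Lep were among these in both ages. DESeq2 called 105 genes in the aged (0.662%), Cfd included (log2 1.51, adjusted p = 0.00879), and 161 in the young (1.02%), without Cfd (adjusted p = 0.07). The limma-voom test called 966 genes in the aged (6.06%) and 631 in the young (3.96%), with Cfd in both (adjusted p = 0.00199 and 0.0166). Without Aged BAM15 1, edgeR also called Cfd in the aged (log2 1.68, adjusted p = 0.0381). The BAM15 effect on Cfd in aged mice exceeded that in young mice by 0.47 ± 0.48 on the log2 scale, with a 95% interval from -0.53 to 1.47 and an adjusted p of 0.903. No gene passed that test of the difference with edgeR (0%), 809 (5.08%) had an unadjusted p under 0.05, DESeq2 called 2 (0.0126%) and limma-voom 0. Without the 4 libraries the 2 effects on Cfd lay closer, at 1.41 in the aged and 1.31 in the young.

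**Figure D3:**
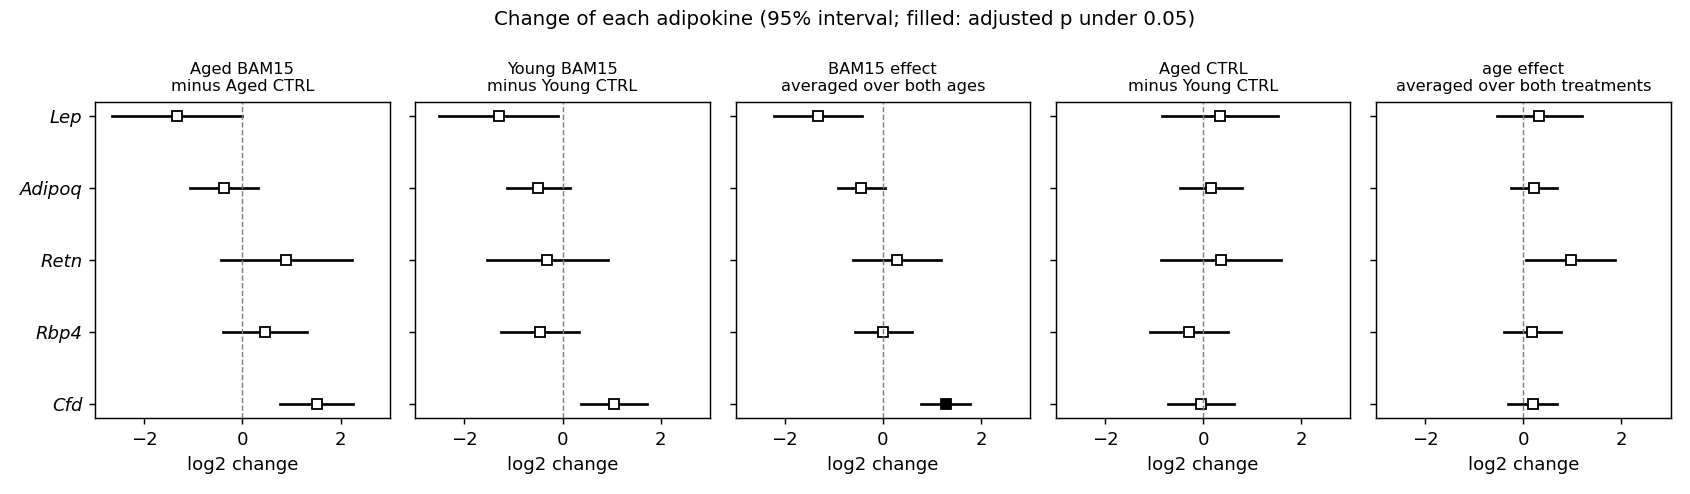
Log2 change of each adipokine in 5 of the 6 comparisons (the difference between the BAM15 effects is not drawn), with bars for the 95% interval and filled points where the adjusted p was under 0.05. The 1 filled point is Cfd for BAM15 averaged over both ages, at 1.28.

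Lep had a lower median in BAM15 mice than in control mice of both ages, but did not pass the test with all libraries. It was at 2034, 112, 1846, 1323 and 416 CPM in Aged BAM15, against a lowest of 188, a median of 3272 and a highest of 4881 CPM in Aged CTRL. The lowest values of both groups, 112 and 416 CPM in Aged BAM15 and 188 CPM in Aged CTRL, came from libraries of low mt-Rnr2. Without them Aged BAM15 spanned 1323 to 2034 CPM and Aged CTRL 1617 to 4881 CPM, so that the groups overlapped. Young BAM15 had a lowest of 442, a median of 934 and a highest of 1423 CPM, against 1044, 1771 and 4576 CPM in Young CTRL. The young groups overlapped between 1044 and 1423 CPM. Averaged over both ages the log2 change with BAM15 was -1.31 ± 0.43 (SE), with an adjusted p of 0.124 by edgeR. Without the 4 libraries it was -1.20 ± 0.30 and passed (adjusted p = 0.0356), as it did with DESeq2 (adjusted p = 0.0266, 4.8% of genes called), with limma-voom (0.00355, 20.6% called) and without Aged CTRL 2 alone (0.0365). By age it was -1.33 ± 0.64 in the aged (adjusted p = 0.542) and -1.30 ± 0.58 in the young (adjusted p = 0.347), and without the 4 libraries -0.98 and -1.43 (adjusted p = 0.438 and 0.0992). With the mean of the B cell markers as a covariate the averaged change was -0.85 (adjusted p = 0.715). The difference between the 2 effects was -0.02 ± 0.84, with a 95% interval from -1.77 to 1.73, and turned to 0.45 without the 4 libraries (adjusted p = 1).

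Adipoq was called in none of the 6 edgeR comparisons. It was at 2554, 4290, 1856, 2028 and 4442 CPM in Aged BAM15, against a lowest of 2866, a median of 3946 and a highest of 4703 CPM in Aged CTRL. The 2 high Aged BAM15 values came from libraries of low mt-Rnr2. Without such libraries Aged BAM15 spanned 1856 to 2554 CPM (n = 3) and Aged CTRL 2866 to 4703 CPM (n = 5). The share of all genes that part these mice in the same way was not computed. In the young, Young BAM15 spanned 1390 to 3395 CPM with a median of 2517, and Young CTRL 1401 to 6196 CPM with a median of 3197, so the groups shared the span of 1401 to 3395 CPM and only Young CTRL had mice above it. Averaged over both ages the log2 change with BAM15 was -0.44 ± 0.23 (SE), with an adjusted p of 0.346 by edgeR. Without the 4 libraries it was -0.58 ± 0.22 (adjusted p = 0.114), and limma-voom with all libraries called it (log2 -0.55, adjusted p = 0.0221). By age it was -0.38 ± 0.33 in the aged (adjusted p = 0.782) and -0.50 ± 0.31 in the young (adjusted p = 0.497), and without the 4 libraries -0.83 and -0.32 (adjusted p = 0.399 and 0.529).

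Rbp4 was called in none of the 6 edgeR comparisons, and its BAM15 effects had opposite signs in the aged and the young with all libraries. It was at 224, 692, 186, 142 and 523 CPM in Aged BAM15, against a lowest of 127, a median of 242 and a highest of 446 CPM in Aged CTRL. In Young BAM15 the lowest was 139, the median 205 and the highest 332 CPM, against 162, 252 and 577 CPM in Young CTRL. The highest value of 3 of the 4 groups (692, 446 and 577 CPM) came from a library of low mt-Rnr2. The change with BAM15 was 0.47 ± 0.41 on the log2 scale (SE) in the aged and -0.46 ± 0.38 in the young, with adjusted p values of 0.781 and 0.633 by edgeR. The difference between these effects was 0.93 ± 0.56, with a 95% interval from -0.24 to 2.09 (adjusted p = 0.899). The change was -0.24 in the aged and -0.25 in the young without the 4 libraries. The change averaged over both ages was 0.01 ± 0.28 on the log2 scale (SE), with a 95% interval from -0.58 to 0.59 and an adjusted p of 0.996 by edgeR, and -0.25 without the 4 libraries (adjusted p = 0.532).

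Retn had its widest spread in the aged groups. It was at 704, 8805, 820, 909 and 3919 CPM in Aged BAM15, against a lowest of 512, a median of 748 and a highest of 6294 CPM in Aged CTRL. Without the libraries of low mt-Rnr2, Aged BAM15 spanned 704 to 909 CPM and Aged CTRL 512 to 864 CPM. Young BAM15 spanned 687 to 1426 CPM with a median of 1007, and Young CTRL 768 to 1934 CPM with a median of 1191. The change with BAM15 averaged over both ages was 0.29 ± 0.43 on the log2 scale (SE), with an adjusted p of 0.806 by edgeR, and 0.01 without the 4 libraries. By age it was 0.89 ± 0.64 in the aged (adjusted p = 0.71) and -0.31 ± 0.59 in the young (adjusted p = 0.869), and the difference between these effects was 1.21 ± 0.87 (adjusted p = 0.899). Without the 4 libraries the change was 0.21 in the aged and -0.20 in the young, with a difference of 0.41.

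None of the 5 adipokines passed the threshold with age. In Aged CTRL against Young CTRL, where 0.207% of all genes passed (33 of 15939), the log2 changes were 0.34 for Lep, 0.16 for Adipoq, 0.36 for Retn, -0.04 for Cfd and -0.28 for Rbp4. In the same order they were 0.48, 0.31, -0.73, 0.29 and -0.30 without the 4 libraries. The adjusted p values with all libraries ran from 0.945 to 0.993. The median log2 change of the 5 with all libraries was 0.16, beside -0.04 for all genes. Averaged over both treatments, where 2.15% of genes passed (343), none of the 5 did either. The log2 change was 0.33 for Lep, 0.22 for Adipoq, 0.19 for Cfd and 0.18 for Rbp4, and without the 4 libraries 0.71, 0.06, 0.34 and -0.29. The largest change was that of Retn, at 0.96 ± 0.43 (SE, adjusted p = 0.222). It turned to -0.52 ± 0.19 without the 4 libraries (adjusted p = 0.211), where 1.47% of genes passed, so its direction with age rests on them. Without them Retn spanned 512 to 864 CPM in Aged CTRL and 768 to 1726 CPM in Young CTRL, where the log2 change between these groups was -0.73 (adjusted p = 0.225, 0.477% of genes called). In order of mean, Cfd ran Aged BAM15, Young BAM15, Young CTRL, Aged CTRL, and only the step between Young BAM15 and Young CTRL (3563 CPM) exceeded the larger SD of its neighbours. Lep and Adipoq both ran Aged CTRL, Young CTRL, Aged BAM15, Young BAM15, with each step under 1 SD. Without the 4 libraries the BAM15 groups changed places for Adipoq (2494 CPM in Young BAM15, 2146 CPM in Aged BAM15). The control groups then changed places for Cfd (3379 CPM in Aged CTRL, 2758 CPM in Young CTRL).

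Because library scaling cancels in a ratio within 1 library, the counts of Lep and of Cfd were also divided by those of Adipoq. The ratio of Cfd was chosen after its values were seen, and only differences between groups are read, since 3′ counts are not compared between genes. The Cfd ratio was 1.91, 2.23, 6.30, 5.08 and 2.22 in Aged BAM15, against a lowest of 0.484, a median of 0.761 and a highest of 1.64 in Aged CTRL. In Young BAM15 it was lowest at 1.78, with a median of 2.88 and a highest of 4.42, against 0.613, 1.02 and 1.11 in Young CTRL. The groups did not overlap at either age over all 24 libraries, those of low mt-Rnr2 included. How many other genes, divided by Adipoq, would part the groups was not computed, for the Cfd ratio or for the Lep ratio below. The level of Cfd alone did overlap at both ages. Adipoq, the divisor, had a log2 change of -0.44 with BAM15 averaged over both ages (not called). Its part in the separation was not tested. The Lep ratio was 0.796, 0.0261, 0.995, 0.653 and 0.0937 in Aged BAM15, against a lowest of 0.0409, a median of 0.972 and a highest of 1.04 in Aged CTRL. It was 0.247 to 0.419 in Young BAM15, with a median of 0.372, against 0.196 to 1.11 in Young CTRL, with a median of 0.673. Without Young CTRL 4 the young groups did not overlap, since Young CTRL then began at 0.592. Without the libraries of low mt-Rnr2 the aged groups overlapped, at 0.653 to 0.995 in Aged BAM15 and 0.446 to 1.04 in Aged CTRL.

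**Figure D4:**
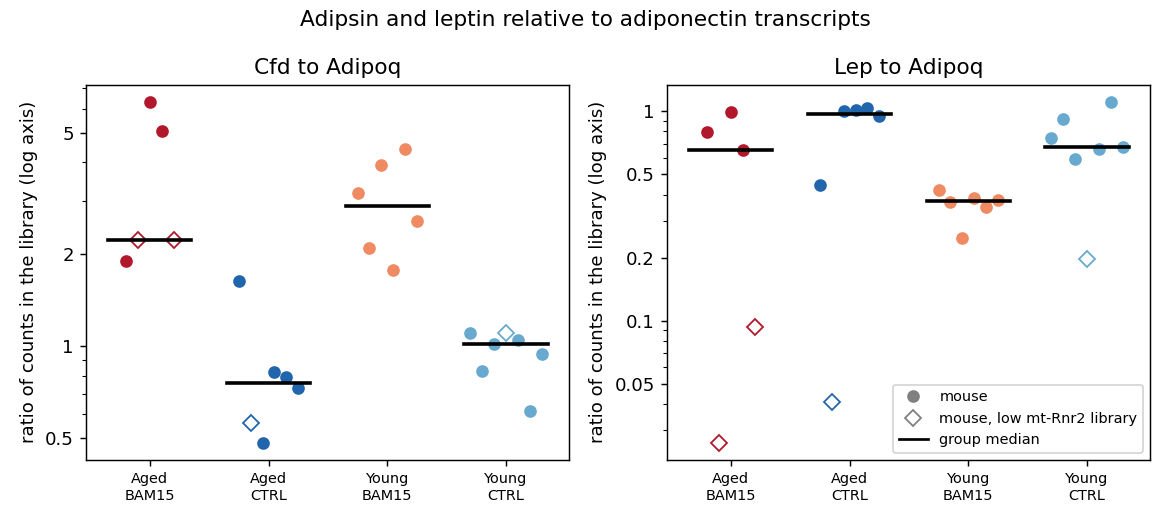
Ratio of Lep to Adipoq and of Cfd to Adipoq counts in each library (log axis), by group; open diamonds are the 4 libraries of low mt-Rnr2 share and black lines the medians. The Cfd ratio is 1.91 to 6.30 in Aged BAM15 and 0.484 to 1.64 in Aged CTRL, and 1.78 to 4.42 in Young BAM15 and 0.613 to 1.11 in Young CTRL.

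Within groups, and over 20 of the 24 libraries, 4 of the 5 adipokines went up and down together from mouse to mouse, while Cfd had a call with Retn alone. Correlations were computed on log2 CPM with the group mean subtracted, over the 20 libraries of ordinary mt-Rnr2 share, because the other 4 lie apart. Among Lep, Adipoq, Retn and Rbp4 the 6 pairs had a Pearson r from 0.74 (Lep and Retn) to 0.86 (Adipoq and Retn). Their permutation p values, adjusted over the 10 pairs, were at most 0.00397, and Spearman's rho ran from 0.74 to 0.86. Without the 2 libraries farthest from the median of the first gene, r ran from 0.64 to 0.87. Cfd had an r of 0.07 with Lep (adjusted permutation p = 0.764), 0.13 with Rbp4 (0.641) and 0.40 with Adipoq (0.096). Cfd and Retn had an r of 0.59 and a rho of 0.54 (adjusted permutation p = 0.00669), and 0.42 without the 2 farthest libraries. With all 24 libraries that call was lost (r = 0.24, adjusted permutation p = 0.343), while Adipoq and Cfd had an r of 0.51 that passed (adjusted permutation p = 0.0443). With all 24 libraries, Lep and Adipoq had an r of -0.08, Lep and Retn -0.72 and Lep and Rbp4 -0.36, so the positive r of Lep with the others was seen in the 20 libraries and not in all 24. The points share their library scaling and their tissue makeup.

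The mean of the adipocyte markers followed Adipoq (r = 0.89, rho = 0.83), Retn (0.80, 0.77), Rbp4 (0.76, 0.80) and Lep (0.74, 0.75) over the 20 libraries. Their permutation p values, adjusted over 20 relations with marker lists, were at most 0.007, and r without the 2 farthest libraries ran from 0.73 to 0.81. With Cfd the adipocyte markers had an r of 0.48 and a rho of 0.30 (adjusted permutation p = 0.0505). The B cell markers ran against Lep (r = -0.66, rho = -0.65, adjusted permutation p = 0.0101), Rbp4 (-0.64, -0.66, 0.0142) and Adipoq (-0.63, -0.61, 0.0343). With Cfd they had an r of -0.11 (adjusted permutation p = 0.747). With all 24 libraries the adipocyte markers had an r of 0.12 with Retn (adjusted permutation p = 0.562) and 0.48 with Rbp4 (0.0545), so that both calls were lost, while those with Adipoq (0.73) and Lep (0.44) still passed. The B cell calls were lost there too, with adjusted permutation p values of 0.139 for Lep, 0.139 for Rbp4 and 0.0638 for Adipoq. When the 2 libraries with Krt14 were left out of the 20, 2 calls were lost. They were Lep with the adipocyte markers (adjusted permutation p = 0.0642) and Adipoq with the B cell markers (0.0804). Neither the macrophage nor the muscle markers had an adjusted p under 0.05 with any of the 5.

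**Figure D5:**
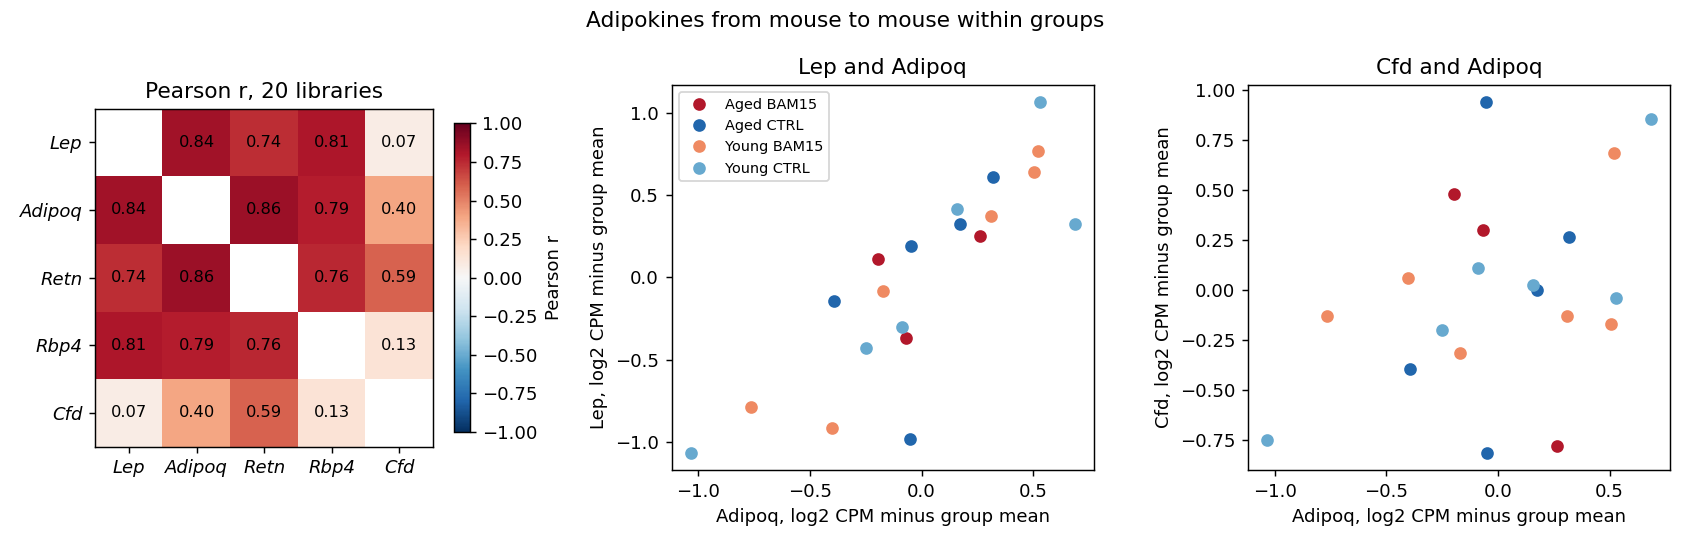
Pearson r of group-centred log2 CPM between the 5 adipokines over 20 libraries (left), and Lep (middle) and Cfd (right) against Adipoq in each library, as log2 CPM minus the group mean, coloured by group. The pairs among Lep, Adipoq, Retn and Rbp4 run from 0.74 to 0.86, while Cfd has 0.07 with Lep and 0.13 with Rbp4.

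The 3 genes whose level followed an adipokine most closely within groups were sought among the 10506 genes that averaged 5 CPM or more. Over all 24 libraries they were Itga7, Cavin3 and Gpx1 for Lep (r = 0.95 to 0.96), Cyp4v3, Chp1 and Sulf2 for Adipoq (0.92 to 0.94) and Fars2, Ywhaq and Ctnnal1 for Retn (0.95 to 0.96). Those of Cfd were Chrdl1, Bnip3 and Chst1, with a lower r of 0.78 to 0.84. Over the 20 libraries the nearest were Mest for Lep (0.93), Aplp2 for Adipoq (0.95), Pde3b for Retn (0.92), Adhfe1 for Cfd (0.93) and Spg21 for Rbp4 (0.93). Of the 3 nearest genes, Sulf2 for Adipoq and Chrdl1 for Cfd appeared with both sets of libraries. None of those of Lep, Retn or Rbp4 did, so their nearest genes over all 24 depend on the libraries of low mt-Rnr2. Mest is known to follow fat cell size in mice, and Pde3b is the insulin-regulated phosphodiesterase of adipocytes.

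Of the 9 genes listed for the alternative complement pathway, in which Cfd acts, 1 fell with BAM15 averaged over both ages and none rose, beside 0.678% of all genes that fell. The 1 was C3ar1, the receptor for the C3a fragment, at 20.3 ± 8.13 CPM in Aged BAM15 (SD, n = 5), against 56.2 ± 11.9 CPM in Aged CTRL (SD, n = 6), and at 14.8 ± 7.85 CPM in Young BAM15 (SD, n = 6), against 27.7 ± 12.5 CPM in Young CTRL (SD, n = 7). Its log2 change was -1.19 ± 0.25 (adjusted p = 0.0323 by edgeR), and it was called in 27 of 39 alternatives. Leaving out Young CTRL 3 or any 1 of Young BAM15 2, 5 or 6 ended its call. So did leaving out any 1 of Aged CTRL 3, 4 or 5, or Aged BAM15 3 or 4. The B cell and macrophage marker covariates and the replicate block also ended it, and each left 0 genes called in this comparison. C3 itself, the source of that fragment, did not pass (log2 0.69 ± 0.20, adjusted p = 0.0877). The median of the 9 was -0.32, beside 0.03 for all genes. With age averaged over treatments, 2 of the 9 rose and none fell (1.72% of all genes rose), with a median of 0.74 beside -0.07 for all genes. One of these was C5ar1, the receptor for C5a, which rose by 1.02 ± 0.27 (adjusted p = 0.0479), and was called in 4 of the 24 fits without 1 library, those without Young CTRL 4, Aged CTRL 2, Aged BAM15 2 or Aged BAM15 4. The macrophage markers averaged higher in Aged CTRL (6.32 ± 0.26 log2 CPM, SD, n = 6) than in Young CTRL (5.64 ± 0.42, n = 7), and lay at 5.73 ± 0.31 in Aged BAM15 (n = 5). With them as a covariate neither C3ar1 nor C5ar1 was called. C3ar1 then had a log2 change of -0.78 with BAM15 averaged (adjusted p = 0.172 by edgeR), when 0 genes were called. C5ar1 had 0.66 with age averaged (adjusted p = 0.448), when 101 genes were called. The part of macrophages in these changes was not tested beyond that covariate.

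None of the 6 tested adipokine receptors (of 7 listed, Stra6 untested) passed in any comparison, and their median with BAM15 averaged over both ages was -0.03. Adipor2 averaged 791 ± 452 CPM in Aged BAM15 (SD, n = 5), 639 ± 265 CPM in Aged CTRL (n = 6), 332 ± 66.8 CPM in Young BAM15 (n = 6) and 478 ± 241 CPM in Young CTRL (n = 7). Its change with age averaged over treatments was 0.84 ± 0.24 (adjusted p = 0.0636 by edgeR), 0.81 without the 4 libraries (adjusted p = 0.0449), and it was called also without Young CTRL 4, Aged CTRL 4 or Aged BAM15 1. Of the 6 genes of leptin receptor signalling, 1 rose with age averaged over treatments (1.72% of all genes rose), none fell, and none passed with BAM15. That was Irs2, an adaptor downstream of the insulin and leptin receptors, by 0.92 ± 0.21 (adjusted p = 0.0192). It was called in 23 of 24 fits without 1 library (not without Aged BAM15 5), and had 0.76 (adjusted p = 0.0897) without the 4. Its call was also lost with the macrophage marker covariate (adjusted p = 0.168 by edgeR) and the replicate block (0.087). The same held without the libraries with high Acta1 (0.0584). None of the 3 genes for folding and release of adiponectin (Erp44, Ero1l and Gstk1) and none of the 8 tested of 10 for retinol transport and use passed in any comparison.

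Of 11 adipocyte transcription factors, 2 rose with age averaged over treatments and none fell, beside 1.72% of all genes that rose. Their median was 0.35, beside -0.07 for all genes, while none passed with BAM15. Cebpd, an early factor of fat cell formation, rose by 1.24 ± 0.26 (adjusted p = 0.011 by edgeR), and by 0.82 without the 4 libraries (adjusted p = 0.00741). Its call was lost with the macrophage marker covariate (log2 0.98, adjusted p = 0.2075) and with the replicate block (adjusted p = 0.0661). Mlxipl, which encodes the glucose-sensing factor ChREBP, rose by 0.88 ± 0.23 (adjusted p = 0.042). It had 0.59 without the 4 (adjusted p = 0.103) and was called in 8 of 24 fits without 1 library, those without Young CTRL 4, Young BAM15 1 or 3, Aged CTRL 3, 4 or 5, or Aged BAM15 1 or 4. The macrophage marker covariate (adjusted p = 0.312) and the replicate block (0.132) also ended the Mlxipl call. So did leaving out the libraries with skin keratin (0.0949) or those with high Acta1 (0.0725). Pparg, the master regulator of adipocytes, did not pass with age (1.03 ± 0.29, adjusted p = 0.0602).

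Of 20 tested other secreted factors of fat (of 23 listed), 1 fell with BAM15 averaged over both ages and none rose. Of all genes, 0.678% fell. The median of the 20 was -0.60, beside 0.03 for all genes. Ccl2, the chemokine that draws monocytes into fat, averaged 15.5 ± 16.0 CPM in Aged BAM15 (SD, n = 5), against 49.0 ± 47.0 CPM in Aged CTRL (SD, n = 6). It averaged 3.96 ± 1.50 CPM in Young BAM15 (SD, n = 6), against 22.7 ± 15.1 CPM in Young CTRL (SD, n = 7). Its log2 change was -2.08 ± 0.47 (adjusted p = 0.041 by edgeR) and -1.78 without the 4 libraries (adjusted p = 0.0601). The call was also lost with the B cell marker covariate (log2 -1.89, adjusted p = 0.14) and the macrophage marker covariate (log2 -1.81, adjusted p = 0.183). Scaling to the adipocyte markers (adjusted p = 0.0671) and the replicate block ended it as well. With either covariate or the block edgeR called 0 genes in this comparison, and 20 with that scaling. None of the 11 macrophage markers was called with BAM15 averaged over both ages, all 11 had a negative log2 change, and their median was -0.26. Ccl2 was called in 10 of 24 fits without 1 library. It was not called without Young CTRL 2, 3 or 6 or Young BAM15 2, 3, 5 or 6. Nor was it called without Aged CTRL 3, 4 or 5, or Aged BAM15 2, 3, 4 or 5.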

How the data were processed

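RNA of 24 iWAT samples was read with QuantSeq, 1 library per sample. The authors deposited raw counts per Ensembl gene and a normalized signal table, made from those counts with 1 size factor for each library (largest deviation of rebuilt counts 5.82e-09). The submitters' processing notes name R 3.4.3, DESeq2 1.18.1 and GRCm38, and the aligner, counter and annotation used are not given in these sources. Symbols came from the normalized table for 14606 genes and from GENCODE vM21 for 2888, and 47 had none.

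All tests used the raw counts, with TMM factors, filterByExpr and the robust quasi-likelihood test of edgeR 4.0.16 (R 4.3.3) on 24 libraries in 4 groups (20 residual degrees of freedom). Genes were called at a Benjamini-Hochberg adjusted p under 0.05 over 15939 genes, and 95% intervals used 20 degrees of freedom. The SE is the log2 change over the root of the F statistic, and log2 CPM used a prior count of 2. Correlations used two-sided tests with 100000 permutations within groups, over 20 libraries in place of the 24 planned. Alternatives were other scalings, filters and tests (DESeq2 1.42.0, limma 3.58.1), marker covariates, a replicate block and left-out libraries. The edgeR step was tested on simulated data.

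The 5 genes, the 7 pathway and 11 marker lists and the tests were chosen with earlier results of these data known. Genes named from a pathway list are those called and the 2 of smallest adjusted p, with at least 1 CPM, while Gstk1, C3 and Pparg were named after their values were seen. Some genes that these rules name are not reported here. The covariate of macrophage markers, the set without high Acta1, DESeq2 without the 4 libraries and the Cfd ratio were added after seeing the data. Totals of 8.62 to 21.9 M counts make counting error small beside the spread between mice. Replicate numbers only name the mice: same-numbered libraries of different groups had a median r of -0.04 in 33 pairs, against 0.00 in 182 others. No library was a copy of another (chi-square per gene 21.1 to 697 in 61 pairs within groups).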

Additional observations from a re-analysis of the deposited data

Results flagged for a closer look

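Of 28 groups of values checked for 1 sample far from the rest, 5 had one, and chance gives about 1 in 20. Retn in Aged CTRL 2 was 6294 CPM, with the next mouse of the group at 864 CPM. Cfd in Young BAM15 1 was 10806 CPM, with the next at 6994 CPM. The log2 ratio of Lep to Adipoq was -4.61 in Aged CTRL 2 (next -1.17), -2.02 in Young BAM15 3 (next -1.53) and -2.35 in Young CTRL 4 (next -0.76). Aged CTRL 2 and Young CTRL 4 are among the 4 libraries of low mt-Rnr2, and Young BAM15 3 is 1 of the 3 with high Acta1.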

How the results depend on the processing

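The cause was not tested for any change given here. The one called change of an adipokine, Cfd with BAM15 averaged over ages, stayed positive under every alternative run. Called correlations did turn sign, and are given with the other correlations. The sign turns of log2 changes that come first were of changes that passed neither with the main settings nor after the turn. With limma-voom, the log2 change turned sign for the difference of the BAM15 effects in Lep (0.39), Adipoq (-0.47) and Rbp4 (-0.013), and for age averaged over treatments in Adipoq (-0.0102), Retn (-0.46), Rbp4 (-0.24) and Adipor1 (-0.0002). It also turned for age in CTRL in Retn (-0.77) and Cfd (0.0502), for BAM15 in aged mice in Rbp4 (-0.26) and for BAM15 averaged over ages in Rbp4 (-0.25). Without the 4 libraries of low mt-Rnr2 it turned for the difference of the BAM15 effects in Lep (0.45) and Adipoq (-0.51), for age in CTRL in Retn (-0.73) and Cfd (0.29), and for age averaged in Retn (-0.52), Rbp4 (-0.29) and Adipor1 (-0.051). There Rbp4 also turned with BAM15 in the aged (-0.24) and averaged (-0.25). DESeq2 without those 4 gave 0.46 for Lep and -0.51 for Adipoq in the difference of the BAM15 effects, -0.74 for Retn and 0.29 for Cfd with age in CTRL, and -0.53 for Retn, -0.30 for Rbp4 and -0.064 for Adipor1 with age averaged. It gave -0.0038 for Retn and -0.26 for Rbp4 with BAM15 averaged, and -0.25 for Rbp4 with BAM15 in the aged. Without the 2 libraries with skin keratin the turns were 0.20 for Lep in the difference, -0.079 for Adipoq with age in CTRL and -0.12 for Rbp4 with BAM15 averaged. The macrophage marker covariate turned Adipoq (-0.20) and Retn (-0.22) with age in CTRL, and Adipoq (-0.061) and Rbp4 (-0.22) with age averaged. Scaling to the adipocyte markers turned Adipoq in the difference (-0.15) and Cfd (0.18) and Rbp4 (0.025) with age in CTRL, and the same markers as a covariate gave -0.20, 0.17 and 0.0008. This scaling moved the median of all genes by 0.16 for BAM15 in young mice and by -0.17 in the difference. The B cell covariate turned Adipoq in the difference (-0.23). Rbp4 with BAM15 averaged turned with DESeq2 size factors and the DESeq2 test (-0.0002 in both) and without the 3 libraries with high Acta1 (-0.072).

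Calls that appeared were, with limma-voom, Lep (-1.41) and Cfd (1.20) with BAM15 in the young, Cfd in the aged (1.76), and Lep (-1.21) and Adipoq (-0.55) averaged. DESeq2 called Cfd in the aged (1.51) and Lep averaged (-1.33). DESeq2 without the 4 libraries called Lep (-1.44) and Cfd (1.30) in the young, Cfd in the aged (1.39), and Lep (-1.22) and Adipoq (-0.59) averaged, and edgeR without them called Lep averaged (-1.20). The averaged Cfd call was lost with the B cell covariate (1.41) and the macrophage covariate (1.34). With the replicate number as a block Cfd averaged was 1.23 (adjusted p = 0.107 by edgeR), Retn with age in CTRL was -0.49 and Rbp4 with BAM15 averaged was -0.056. The samples share only a number, since 3 of 24 libraries had their best match under their own number. The block took the genes called with BAM15 averaged to 0 and with age averaged to 97.

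The averaged Cfd call was also lost without Young BAM15 5 (adjusted p = 0.0583 by edgeR), without Aged CTRL 3 (0.0566), without Aged BAM15 3 (0.0758) and without Aged BAM15 4 (0.0811). Over fits without 1 library, the log2 change ran from 1.17 to 1.42 for Cfd and from -1.47 to -1.18 for Lep with BAM15 averaged, and from 1.39 to 1.78 for Cfd in the aged. Retn ran from -0.86 to 0.54 with age in CTRL (turning without Aged CTRL 2), and from -0.037 to 2.12 in the aged and -0.19 to 0.90 averaged with BAM15 (turning without Aged BAM15 2). The range was -0.31 to 0.23 for Cfd with age in CTRL and -0.21 to 0.12 for Rbp4 with BAM15 averaged. In the difference of the BAM15 effects it was -0.33 to 0.29 for Lep and -0.077 to 0.26 for Adipoq.

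The called correlations of Lep with Adipoq, Retn and Rbp4, all positive over 20 libraries, turned negative with all 24, and the one with Retn passed in that direction. There r was -0.077 for Lep and Adipoq, -0.72 for Lep and Retn, -0.027 for Lep and Cfd, -0.36 for Lep and Rbp4, 0.51 for Adipoq and Cfd and 0.24 for Retn and Cfd. With the marker lists it was -0.096 for Lep and macrophage, -0.38 for Lep and B cell, 0.034 for Lep and muscle, -0.55 for Adipoq and B cell, 0.12 for Retn and adipocyte, 0.11 for Cfd and macrophage, 0.48 for Rbp4 and adipocyte and -0.42 for Rbp4 and B cell markers. With 24 libraries the calls of Retn and Cfd, Retn and adipocyte, Rbp4 and adipocyte, and Lep, Adipoq and Rbp4 with B cell markers were lost, and that of Adipoq and Cfd appeared. Without the skin keratin libraries r was -0.18 for Lep and Cfd, -0.0696 for Cfd and Rbp4, 0.64 for Lep and adipocyte, -0.016 for Lep and macrophage, -0.041 for Adipoq and macrophage, -0.58 for Adipoq and B cell, -0.27 for Retn and macrophage and 0.037 for Cfd and B cell markers. The calls of Lep with adipocyte markers (adjusted permutation p = 0.0642) and of Adipoq with B cell markers (0.0804) were lost there. Cfd and adipocyte markers passed with DESeq2 size factors (0.48), and Cfd and B cell markers had a rank correlation of 0.062.

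The number of genes called depended on the test. BAM15 averaged called 147 with the main settings, 701 with DESeq2, 3291 with limma-voom, 765 without the 4 libraries, 2036 with DESeq2 without them, 89 with no filter or upper-quartile factors, 83 without high Acta1 and 20 with adipocyte scaling. The B cell and macrophage covariates left 0 (1376 and 1826 genes at an unadjusted p under 0.05, edgeR), the block 0 (2167), and fits without 1 library 0 to 586. Age in CTRL called 33, against 179 with DESeq2, 145 with limma-voom, 79 without the 4, 349 with DESeq2 without them, 68 with the adipocyte covariate, 18 in a fit to the compared groups, 9 with the macrophage covariate, 6 without high Acta1, 5 with the block and 4 without skin keratin. Age averaged called 343, against 974 with DESeq2, 757 with limma-voom, 555 with DESeq2 without the 4, 195 without skin keratin or without high Acta1 and 101 with the macrophage covariate, and 159 to 610 without 1 library. BAM15 in the aged, where edgeR called 0 genes (1450 at an unadjusted p under 0.05), gave 105 with DESeq2, 966 with limma-voom and 130 with DESeq2 without the 4. BAM15 in the young, also at 0 (2081), gave 161, 631 and 702. The difference of the BAM15 effects, also at 0 (809), gave 2 with DESeq2 and 6 with DESeq2 without the 4. Leaving out 1 library gave 0 to 67 in the aged and 0 to 1 in the young, and the adipocyte covariate 1 in the young.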
